A study of Homo sapiens with 3 samples.

Results

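The TAM family consists of the receptor tyrosine kinases TYRO3, AXL and MERTK, and its ligands are GAS6 and protein S, which is encoded by PROS1. These 5 genes were picked by their Ensembl identifiers from the 58381 genes of a read count table of T24 cells, a human bladder carcinoma line, and all 5 had more than 1000 counts in every library. RNA-seq covered 3 conditions with 1 library each. Ctrl was the control that the labels describe as empty, RT was irradiated, and RT + shHDAC6 was irradiated and carried a lentiviral shRNA against HDAC6, a cytoplasmic deacetylase. The labels name a pLKO.1 control vector and puromycin selection for the cells and give the dose as 10 Gy in a protocol text that stands on all 3 samples, so that Ctrl was taken as not irradiated from its treatment label alone. The study's text describes the comparator of the RNA-seq as parental cells, and whether the Ctrl and RT cells carried the vector could not be settled from the sources used here. The interval between irradiation and RNA extraction was not given for these libraries. No library held unirradiated cells with the shRNA. An effect of the shRNA alone thus cannot be told apart from one on the irradiation response. With 1 library per condition no difference has a replicate check, no test could be run, and every interval below covers counting error only.

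GAS6 and protein S bridge phosphatidylserine on the surface of dying cells or vesicles to the TAM receptors, which then dimerise and signal through their kinase domains. Both ligands must first be carboxylated on glutamate residues by a vitamin K-dependent enzyme to bind phosphatidylserine. GAS6 binds all 3 receptors and binds AXL most tightly, whereas protein S, better known as an anticoagulant, acts on TYRO3 and MERTK. MERTK serves the clearance of apoptotic cells by macrophages, and AXL in carcinoma cells is known for invasion, epithelial-mesenchymal transition and resistance to therapy.

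The 5 genes lie on different chromosomes. AXL (ENSG00000167601) lies on chr19:41219223-41261766 on the plus strand of GRCh38, TYRO3 (ENSG00000092445) on chr15:41557675-41583589 on the plus strand and MERTK (ENSG00000153208) on chr2:111898607-112029561 on the plus strand. GAS6 (ENSG00000183087) lies on chr13:113820549-113864076 on the minus strand and PROS1 (ENSG00000184500) on chr3:93873051-93980003 on the minus strand. The 250 bases upstream of the RefSeq start (GRCh38.p14) are shown for AXL, the member with the largest difference after irradiation, and for the ligand genes, which the study placed among genes higher after irradiation and lower with the shRNA. They are printed 5′ to 3′ along each gene, and capitals mark the GC box GGGCGG on either strand, a motif bound by Sp1. The windows are chr19:41218973-41219222 (plus) for AXL, chr13:113864077-113864326 (minus) for GAS6 and chr3:93973897-93974146 (minus) for PROS1, whose RefSeq start lies inside the longer GENCODE gene.
AXL: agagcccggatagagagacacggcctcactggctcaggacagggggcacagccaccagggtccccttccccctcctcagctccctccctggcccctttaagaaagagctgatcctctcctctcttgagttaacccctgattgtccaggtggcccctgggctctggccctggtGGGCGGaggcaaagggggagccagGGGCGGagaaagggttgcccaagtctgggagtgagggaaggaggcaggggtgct
GAS6: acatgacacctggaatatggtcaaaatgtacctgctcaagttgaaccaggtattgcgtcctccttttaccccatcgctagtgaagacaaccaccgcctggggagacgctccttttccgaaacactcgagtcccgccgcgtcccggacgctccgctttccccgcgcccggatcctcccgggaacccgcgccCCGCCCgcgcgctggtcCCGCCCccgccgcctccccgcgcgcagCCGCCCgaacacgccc
PROS1: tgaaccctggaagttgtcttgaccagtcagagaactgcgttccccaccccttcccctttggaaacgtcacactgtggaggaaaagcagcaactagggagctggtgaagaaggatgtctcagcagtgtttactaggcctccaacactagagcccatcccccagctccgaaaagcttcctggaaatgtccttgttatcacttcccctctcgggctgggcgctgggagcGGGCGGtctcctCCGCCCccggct
The GC box was found 2 times in the AXL window, 3 times in that of GAS6 and 2 times in that of PROS1. MERTK held 4 and the first TYRO3 window 3, so all 5 genes had the motif, which stood in 42.6% of 35116 promoter windows of the same length. The first AXL window, that of GAS6, that of MERTK and the first of TYRO3 were richer in G and C (64.4%, 66.8%, 78.8% and 80%) than the median window (58%), whereas that of PROS1 was at 57.6% and a second AXL window at 54.4%. TGANTCA, the letters bound by AP-1 factors, was found 1 time, in the first TYRO3 window, and stood in 6.57% of all windows. GGAATG, the letters bound by TEAD factors, was found 1 time, in the second AXL window, and stood in 11.9% of all. No match of different motifs overlapped in these windows, and a match is a description of letters only.

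The libraries held 35424086 to 41811165 counts. HDAC6 itself had 3098 (Ctrl), 2383 (RT) and 2170 (RT + shHDAC6) counts, and after scaling the shRNA library stood at 87.2% of the RT library (log2 ratio -0.20, interval -0.28 to -0.11), a difference that 22.9% of genes with at least 1000 counts exceeded in the same direction. The messenger RNA thus stood little below that of RT in the library labelled RT + shHDAC6. By other measures, qPCR for messenger RNA and Western blot for protein, the study reported lower HDAC6 in its knockdown cells. Its Western blots included irradiated cells. Of 12 urothelial carcinoma markers, 9 had at least 100 counts in every library, and the uroplakin genes UPK1B, UPK2 and UPK3A had under 10 in all. The macrophage list, for cells that use MERTK, had 4 of 12 genes with at least 100 counts in Ctrl and 0 in the irradiated libraries, with summed levels of 21.2 CPM (Ctrl), 13.4 (RT) and 16.1 (RT + shHDAC6). The endothelial list summed to 30.1, 19.6 and 25.3 CPM over 8 genes, the fibroblast list to 407, 354 and 386 over 8, and the dendritic and Sertoli cell list to 105, 77.1 and 74.8 over 6, with FSHR at 0 everywhere. These 4 sums were highest in Ctrl, where 4 of the 5 TAM genes were lowest. The urothelial carcinoma list summed to 2540, 4518 and 3625 CPM, made up mostly of CD44 (941, 1928 and 1849) and ITGA6 (1034, 2033 and 1152). KRT7 and KRT18 were also higher in RT than in Ctrl, whereas KRT8, KRT19, EPCAM, ITGB4 and GATA3 were lower, so the list had no common direction. Mitochondrially encoded RNA took 3.75%, 6.09% and 5.51% of the counts, and 31034, 28616 and 28913 genes had a count. The part of these differences in the results was not tested. In bulk RNA, fewer cells of a type and less RNA per cell cannot be told apart.

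RT was compared to Ctrl to see how the TAM genes stood in irradiated cells. All 5 genes were higher in RT than in Ctrl, from 1.39-fold for PROS1 to 2.83-fold for AXL. Levels in CPM, a gene's counts relative to the size of its library, were scaled with TMM, which brings libraries to a common scale through the bulk of genes, and log2 ratios carry a 95% Clopper-Pearson interval. Of the 5 genes, 3 (AXL, TYRO3 and GAS6) were at least 2-fold higher, against 4.81% of the 20267 genes that reached 10 counts in either library, and 0 were at least 2-fold lower, against 9.17%. All 5 intervals lay above 0, against 29.7% of the genes tested, and 0 below, against 28.2%. The median of the 5 log2 ratios was 1.08 and that of all genes tested -0.062. TMM raised each RT to Ctrl ratio by 0.218 over scaling by library totals, with which 523 genes were at least 2-fold higher and 2845 lower in place of 975 and 1858, and with library totals the log2 ratios of TYRO3 (0.94) and GAS6 (0.86) lay under 2-fold.

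AXL, the receptor with the highest affinity for GAS6, had 19099 (Ctrl), 39991 (RT) and 35626 (RT + shHDAC6) counts. Its level was 421 CPM in Ctrl (interval 415 to 427), against 1192 in RT (1181 to 1204) and 1017 in the shRNA library (1007 to 1028). The Ctrl library was low and the irradiated libraries high, and none of the 3 counting intervals touched another. The log2 ratio of RT to Ctrl was 1.5 (1.48 to 1.53), and 51 of 7588 genes with at least 1000 counts in either library (0.672%) had a higher one. AXL thus stood near the upper edge of well-counted genes.

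TYRO3, a receptor used by protein S and GAS6, had 2018 (Ctrl), 3338 (RT) and 2474 (RT + shHDAC6) counts, or 44.5, 99.5 and 70.7 CPM. RT was highest and RT + shHDAC6 lay between the other libraries. The log2 ratio of RT to Ctrl was 1.16 (1.08 to 1.24), which 2.82% of the well-counted genes exceeded. Of the 50-base words of its main transcript, 5.07% also stood in transcripts of other genes, most often of the pseudogene TYRO3P, which had 39, 16 and 12 counts.

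MERTK, the receptor of apoptotic cell clearance, had 2303 (Ctrl), 3156 (RT) and 2849 (RT + shHDAC6) counts. These were 50.8, 94.1 and 81.4 CPM, again with Ctrl low and RT highest. Its log2 ratio of RT to Ctrl was 0.89 (0.81 to 0.97), or 1.85-fold, which 7.5% of the well-counted genes exceeded. No 50-base word of MERTK was shared with another gene.

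GAS6, the ligand of all 3 receptors, had 1900 (Ctrl), 2964 (RT) and 2048 (RT + shHDAC6) counts. Its levels were 41.9 CPM in Ctrl (40 to 43.8), against 88.4 in RT (85.2 to 91.6) and 58.5 in the shRNA library (56 to 61.1). The RT + shHDAC6 library lay closer to Ctrl than to RT. The log2 ratio of RT to Ctrl was 1.08 (0.99 to 1.16), and 3.99% of the well-counted genes exceeded it. An antisense gene, GAS6-AS1, overlaps 7% of the GAS6 exon length on the other strand and had 26, 15 and 26 counts. Without a stated strand setting, reads in that overlap cannot be told apart.

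PROS1, which encodes protein S, had 1673 (Ctrl), 1719 (RT) and 1136 (RT + shHDAC6) counts. Its levels were 36.9 CPM in Ctrl (35.1 to 38.7), against 51.3 in RT (48.9 to 53.7) and 32.4 in the shRNA library (30.6 to 34.4). PROS1 was the member with the smallest RT to Ctrl difference, a log2 ratio of 0.47 (0.38 to 0.57), which 23.2% of the well-counted genes exceeded, and it was 0.26 with library totals. Of its 50-base words, 10.7% also stood in the pseudogene PROS2P, which had 5, 9 and 39 counts.

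**Figure D1:**
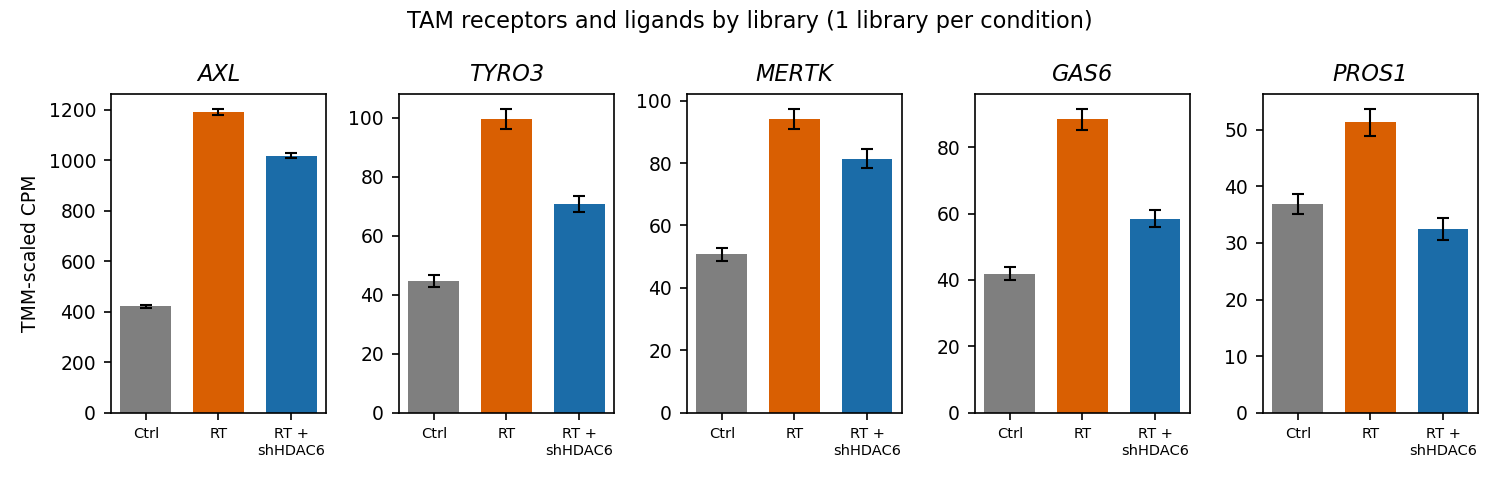
TMM-scaled CPM (y axis, from 0, a scale of its own for each gene) of AXL, TYRO3, MERTK, GAS6 and PROS1 in the Ctrl, RT and RT + shHDAC6 libraries. Bars are single libraries and error bars are 95% counting intervals. RT is the highest bar in all 5 panels, and PROS1 is the gene whose RT + shHDAC6 bar (32.4) lies under Ctrl (36.9).

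RT + shHDAC6 was compared to RT to see how the TAM genes differed when the irradiated cells carried the shRNA. All 5 were lower in RT + shHDAC6, and the ligand genes stood further below RT than AXL and MERTK did. None of the 5 was at least 2-fold lower or higher, against 4.78% lower and 4.35% higher of 19013 genes tested, and all 5 intervals lay below 0, against 24.4% of genes, with 19.6% above. The median of the 5 log2 ratios was -0.49 and that of all genes -0.0032. RT stands in this comparison and in that with Ctrl, so a high RT library alone would raise the first ratio and lower the second. The study chose GAS6 and PROS1 on these same libraries for a high RT level and a lower one with the shRNA, and their direction here is no independent evidence.

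PROS1 in RT + shHDAC6 was at 63.3% of its RT level (log2 ratio -0.66, -0.77 to -0.55), and 180 of 6995 well-counted genes (2.57%) were lower still. GAS6 was at 66.2% (-0.60, -0.68 to -0.51), with 3.23% of genes lower. The intervals of the ligand genes overlapped, and they stood in the low tail of well-counted genes. TYRO3 was at 71% of RT (-0.49, -0.57 to -0.42), with 5.52% of genes lower. AXL was at 85.3% (-0.23, -0.25 to -0.21) and MERTK at 86.5% (-0.21, -0.28 to -0.14), with 19.6% and 21.5% of genes lower, so neither stood apart from the bulk of genes, and HDAC6 was at 87.2%.

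**Figure D2:**
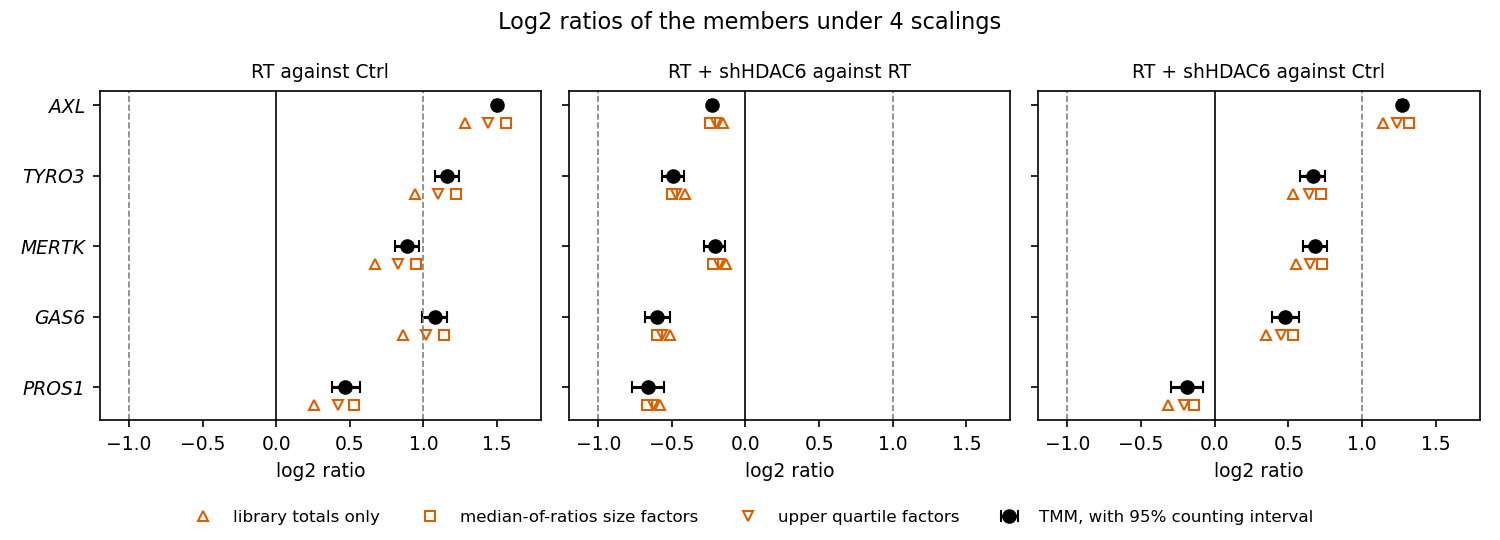
Log2 ratios (x axis) of the 5 TAM genes in the 3 comparisons, with TMM scaling (black circles with 95% counting intervals) and with library totals, median-of-ratios and upper quartile scaling (open symbols). Dashed lines mark 2-fold. No ratio crosses 0 under another scaling, and with library totals TYRO3 (0.94) and GAS6 (0.86) lie under 2-fold in RT against Ctrl.

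RT + shHDAC6 was also set against Ctrl. These libraries differ in both irradiation and shRNA, whose parts cannot be told apart without unirradiated cells that carry the shRNA. AXL was 2.42-fold higher than in Ctrl (log2 ratio 1.27, 1.25 to 1.30) and was the 1 member at least 2-fold higher, against 4.91% of 20374 genes, with 10.5% of genes at least 2-fold lower and none of the members. MERTK was 1.6-fold (0.68, 0.60 to 0.76), TYRO3 1.59-fold (0.67, 0.58 to 0.75) and GAS6 1.4-fold higher (0.48, 0.39 to 0.57). PROS1 was at 87.9% of Ctrl (-0.19, -0.30 to -0.08). Intervals above 0 were found for 4 members and 1 below, against 29.7% and 28.7% of genes. The log2 ratio of RT + shHDAC6 to Ctrl was 84.8% of that of RT to Ctrl for AXL, 76.4% for MERTK, 57.4% for TYRO3 and 44.7% for GAS6. For PROS1 it had the opposite sign. AXL and MERTK thus had the largest of these shares. The shares move with the scaling and cannot be read as a part of the irradiation difference that persisted.

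**Figure D3:**
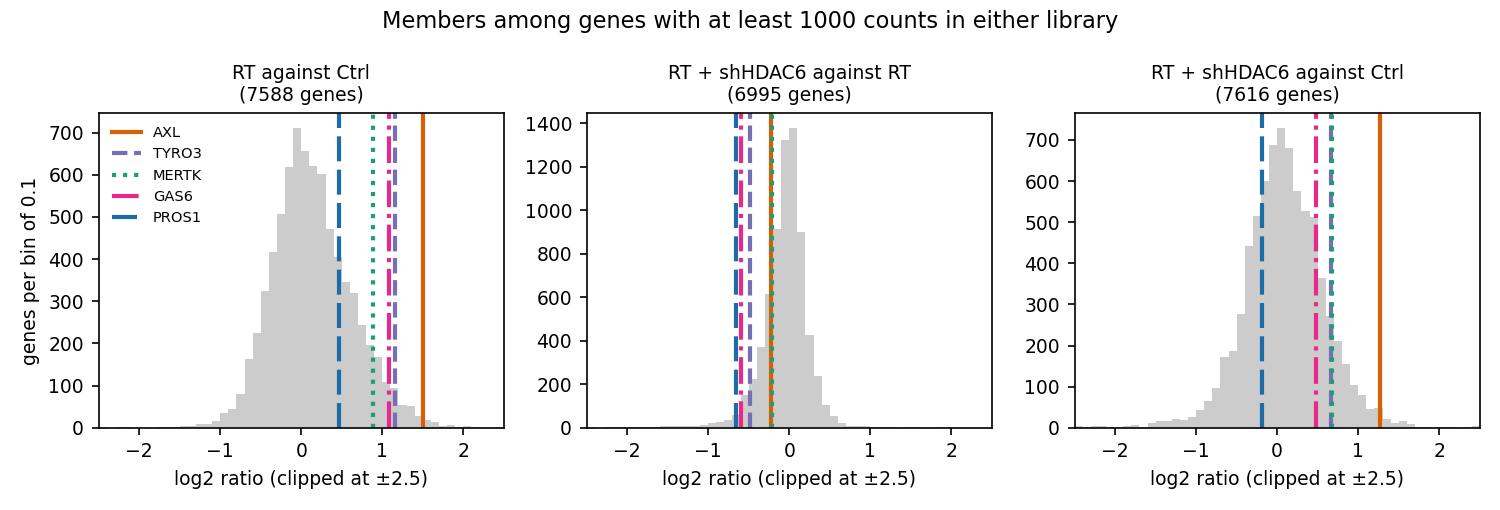
Number of genes per bin of 0.1 log2 units (y axis) by log2 ratio (x axis, clipped) among genes with at least 1000 counts in either library, for the 3 comparisons, with a vertical line for each TAM gene. AXL lies in the upper tail in RT against Ctrl (0.672% of genes higher), and PROS1 and GAS6 in the lower tail in RT + shHDAC6 against RT (2.57% and 3.23% of genes lower).

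The ratio of 2 genes within a library needs no scaling between libraries, so the members were also compared with each other, with intervals from counting error. AXL outnumbered PROS1 in counts by 11.4 to 1 in Ctrl, by 23.3 to 1 in RT and by 31.4 to 1 with the shRNA. The log2 change of this ratio was 1.03 from Ctrl to RT (0.93 to 1.13) and a further 0.43 from RT to RT + shHDAC6 (0.32 to 0.54). The balance between AXL and protein S messenger RNA therefore moved in the same direction at each step. AXL to GAS6 behaved alike, with count ratios of 10.1, 13.5 and 17.4 and log2 changes of 0.42 (0.34 to 0.51) and 0.37 (0.28 to 0.45). AXL to TYRO3 went from 9.46 to 12 and 14.4.

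AXL to MERTK went from 8.29 in Ctrl to 12.7 in RT and was 12.5 in RT + shHDAC6, where the log2 change of -0.02 had an interval from -0.10 to 0.06. TYRO3 to GAS6 changed by 0.08 (-0.03 to 0.20) and then by 0.10 (-0.01 to 0.21), both within counting error, while from Ctrl to RT + shHDAC6 the change of 0.19 (0.06 to 0.31) was not. GAS6 to PROS1 changed by 0.60 (0.47 to 0.73) from Ctrl to RT and by 0.06 (-0.07 to 0.20) from RT to RT + shHDAC6. The ligand genes thus differed from each other in RT against Ctrl and not beyond counting error in RT + shHDAC6 against RT.

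Levels of different genes were compared per length, in TPM, a gene's share of all counts per base of transcript, over the union of each gene's exons. AXL was the most abundant of the 5 by far, at 401 (Ctrl), 908 (RT) and 831 (RT + shHDAC6) TPM. MERTK followed at 60.1, 89 and 82.5 TPM. In Ctrl, PROS1 (34.2 TPM, interval 32.6 to 35.9) and GAS6 (34.1, 32.5 to 35.6) did not differ beyond counting error, and TYRO3 was lowest at 20.2. In RT, GAS6 was at 57.4 TPM, and PROS1 (38, 36.2 to 39.9) and TYRO3 (36.1, 34.9 to 37.4) had overlapping intervals. In RT + shHDAC6 the same was true of TYRO3 (27.5, 26.4 to 28.6) and PROS1 (25.8, 24.3 to 27.4), below GAS6 at 40.8. With the length of the canonical transcript in place of all exons, GAS6 (50, 88 and 61.7 TPM) stood above MERTK (39.7, 61.5 and 56.3 TPM) in every library, and above PROS1 (32.7, 38 and 25.5 TPM), which in turn stood above TYRO3 (16.6, 31 and 23.3 TPM). The order below AXL, the overlaps just given included, therefore depends on the length used.

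AXL held 83.3% of the summed TPM of the TAM receptors in Ctrl, 87.9% with RT and 88.3% with RT + shHDAC6, MERTK 12.5%, 8.62% and 8.77%, and TYRO3 4.2%, 3.5% and 2.92%. The receptors summed to 481, 1033 and 941 TPM and the ligands to 68.3, 95.4 and 66.6 TPM. Receptor TPM per ligand TPM therefore stood at 7.05 (Ctrl), 10.8 (RT) and 14.1 (RT + shHDAC6), and at 3.91, 5.75 and 7.46 with canonical lengths. The ligand sums of Ctrl and RT + shHDAC6 hide opposite differences, with GAS6 higher (34.1 and 40.8 TPM) and PROS1 lower (34.2 and 25.8 TPM) in RT + shHDAC6.

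Among 58 receptor tyrosine kinase genes, AXL ranked 2 (Ctrl), 1 (RT) and 2 (RT + shHDAC6) by TPM, changing places with EPHA2, an ephrin receptor (482, 752 and 1057 TPM). AXL alone made up 23.3%, 32.7% and 30.7% of the summed TPM of all 58. MERTK ranked 7, 6 and 4, and TYRO3 17, 12 and 13. With canonical lengths AXL kept its ranks and made up 18.9%, 27.8% and 26.7%, while MERTK ranked 10, 9 and 7 and TYRO3 16, 13 and 14. The next most abundant kinase genes over all exons were MET, the receptor of hepatocyte growth factor, in Ctrl (116 TPM) and RT (183 TPM), and PTK7, a pseudokinase of Wnt signalling, in RT + shHDAC6 (114 TPM), and with canonical lengths PTK7 in every library (127, 212 and 153 TPM). AXL and EPHA2 stood well above the other kinases in every library.

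Of the 51 kinase genes tested in RT against Ctrl, 5 were at least 2-fold higher and 5 lower, against 4.81% and 9.17% of all genes tested, with a median log2 ratio of -0.01, which was 0.05 with median-of-ratios scaling. The 5 lower ones (FGFR2, FLT4, NTRK3, ROR2 and EPHA5) had at most 61 counts in either library. The higher ones were KIT, the receptor of stem cell factor (560 and 1622 counts, log2 ratio 1.97, 1.83 to 2.11), ROR1, a Wnt5a receptor (1.59, 1.38 to 1.80), AXL, TYRO3 and the ephrin receptor EPHB2 (1.10, 1.05 to 1.15). With the shRNA, compared to RT, 4 of 50 were at least 2-fold higher and 6 lower, against 4.35% and 4.78% of all genes, with a median of -0.04 that was 0.04 with library totals. The 4 higher ones (LTK, ROR2, NTRK3 and EPHA5) had at most 21 counts in either library. KIT (-2.17, -2.34 to -2.01), EPHB2 (-2.10, -2.17 to -2.03), the receptor-like kinase STYK1 (-1.83, -2.06 to -1.61) and MET (-1.28, -1.33 to -1.23) were the lower ones with at least 100 counts. Against these, the TAM receptors lay between -0.49 and -0.21. EPHA2 was higher than RT by 0.39 (0.37 to 0.41) and was the kinase that stood furthest above Ctrl in RT + shHDAC6 among those with at least 100 counts (1.36, 1.33 to 1.38), followed by AXL (1.27).

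**Figure D4:**
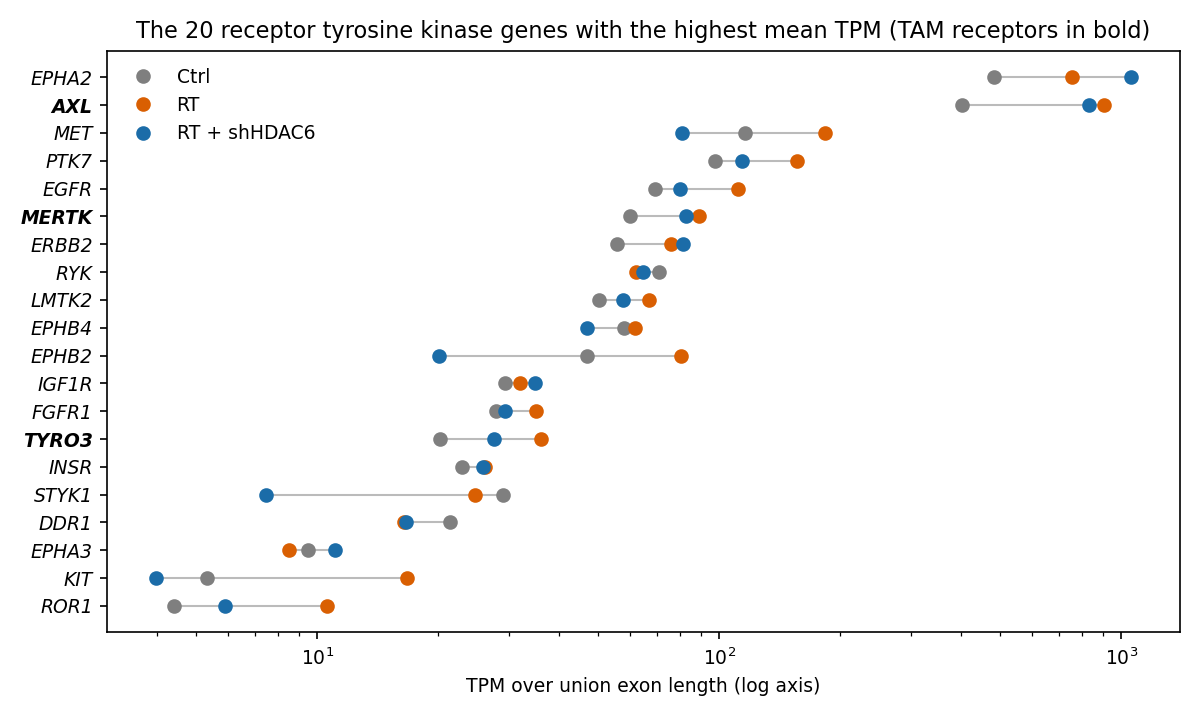
TPM over union exon length (x axis, log scale) of the 20 receptor tyrosine kinase genes with the highest mean, in Ctrl (grey), RT (orange) and RT + shHDAC6 (blue), with the TAM receptors in bold. AXL (401, 908 and 831 TPM) and EPHA2 stand apart from the others, and KIT, EPHB2 and MET have RT + shHDAC6 points far to the left of RT, unlike the TAM receptors.

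The other genes of the pathway were taken from fixed lists. Log2 ratios between 0 and 0.218 in RT against Ctrl, between -0.0837 and 0 in RT + shHDAC6 against RT, and between 0 and 0.134 in RT + shHDAC6 against Ctrl change sign when scaled by library totals. Of 10 genes of the vitamin K cycle and the proteases that mature Gla proteins, 2 were at least 2-fold higher and 0 lower in RT than in Ctrl. Of all genes tested, 4.81% and 9.17% were. Here 8 intervals lay above 0 and 0 below, against 29.7% and 28.2% of all genes, and the median was 0.51, against -0.062. PCSK7, a proprotein convertase, had a log2 ratio of 1.12 (1.07 to 1.17). GGCX, the carboxylase that modifies GAS6 and protein S, had 2567, 2938 and 2532 counts and a ratio of 0.63 (0.55 to 0.71), and VKORC1, which recycles vitamin K, of 0.52 (0.11 to 0.93). Compared to RT, 0 of the 10 in RT + shHDAC6 were 2-fold different, against 4.35% of all genes higher and 4.78% lower. There 3 intervals lay above and 4 below 0, against 19.6% and 24.4%, and the median of -0.02 was 0.06 with library totals. PCSK7 was lower (-0.70, -0.75 to -0.65), and GGCX lower by less (-0.28, -0.35 to -0.20). Against Ctrl, 1 was 2-fold higher and 0 lower, against 4.91% and 10.5% of all genes, and the median was 0.43.

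Most of the 17 other Gla proteins and partners of protein S were scarce in these cells. In RT against Ctrl 9 were tested, with 0 at least 2-fold higher and 1 lower, against 4.81% and 9.17% of all genes. The lower one was F2, on 12 and 3 counts, and the median of 0.14 was -0.08 with library totals. For RT + shHDAC6 against RT 8 were tested, with 0 in either direction, against 4.35% and 4.78% of all genes, and a median of -0.11. Against Ctrl 10 were tested, with 1 higher and 0 lower, against 4.91% and 10.5% of all genes. The higher one was F10, on 8 counts in Ctrl and 18 in RT + shHDAC6, and the median was 0.00. TFPI, an inhibitor of tissue factor for which protein S is a cofactor, had 4828, 4759 and 3457 counts, with log2 ratios of 0.41 (0.36 to 0.47) for RT to Ctrl and -0.52 (-0.59 to -0.46) for RT + shHDAC6 to RT. PROCR, the receptor of protein C, had ratios of 0.83 (0.76 to 0.90) and -0.78 (-0.85 to -0.70). By scaled level these partners were highest in the RT library, as PROS1 was. MGP, an inhibitor of calcification and itself a Gla protein, went the other way, with 1361, 662 and 914 counts and ratios of -0.60 (-0.74 to -0.47) and 0.40 (0.26 to 0.55).

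Among 10 genes of other TAM ligands and of receptor shedding, 9 were tested. In RT against Ctrl 0 were 2-fold different, against 4.81% of all genes higher and 9.17% lower. There 6 intervals lay above and 1 below 0, against 29.7% and 28.2%, and the median was 0.38. In the shRNA library against RT 1 was higher, TUB on 12 and 27 counts, and 0 lower, against 4.35% and 4.78% of all genes. There 1 interval lay above and 5 below 0, against 19.6% and 24.4%, and the median was -0.14. ADAM10, a protease that sheds AXL, had 13147, 13028 and 11719 counts, with ratios of 0.42 (0.39 to 0.46) and -0.21 (-0.25 to -0.18). TIMP3, an inhibitor of shedding proteases, was lower in RT + shHDAC6 than in Ctrl (-1.29, -1.38 to -1.19). It was the 1 gene of the list 2-fold lower there, with 0 higher, against 10.5% and 4.91% of all genes, and a median of 0.21.

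The 33 adaptors and effectors of TAM signalling were all tested. In RT against Ctrl 0 were 2-fold different, against 4.81% of all genes higher and 9.17% lower. There 7 intervals lay above and 18 below 0, against 29.7% and 28.2% of all genes, and the median was -0.21. GRB2, an adaptor that binds the activated receptors, was at -0.21 (-0.26 to -0.15), and SHC1 at -0.17 (-0.21 to -0.13). In RT + shHDAC6 against RT 0 were 2-fold different, against 4.35% of all genes higher and 4.78% lower. There 14 intervals lay above and 8 below 0, against 19.6% and 24.4% of all genes, and the median was 0.08. Against Ctrl, 1 was higher, the feedback inhibitor SOCS3 (1.23, 1.09 to 1.38), and 1 was lower, the kinase FYN (-1.26, -1.47 to -1.05). Of all genes, 4.91% and 10.5% were, and the median of the list was -0.13.

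Of 12 genes for the exposure of phosphatidylserine, the cell surface signal of the TAM ligands, 11 were tested. In RT against Ctrl 0 were 2-fold different, against 4.81% of all genes higher and 9.17% lower. There 6 intervals lay above and 2 below 0, against 29.7% and 28.2%, and the median was 0.44. In RT + shHDAC6 against RT 1 was higher and 1 lower, against 4.35% and 4.78% of all genes. The lower one was PLSCR3, on 11 and 4 counts, with an interval that held 0 (-3.63 to 0.23). There 2 intervals lay above and 6 below 0, against 19.6% and 24.4%, and the median was -0.35. PLSCR4, a phospholipid scramblase family member, had ratios of -0.81 (-0.97 to -0.65) and 1.41 (1.26 to 1.57). Against Ctrl 0 were higher and 1 lower, again PLSCR3, against 4.91% and 10.5% of all genes, and the median of 0.06 was -0.08 with library totals.

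Other receptors and bridging proteins for phosphatidylserine numbered 21, of which 18 were tested in RT against Ctrl. There 1 was higher and 1 lower (ADGRB1, on 36 and 10 counts), against 4.81% and 9.17% of all genes, with a median of -0.16. Compared to RT, 17 were tested, 0 higher and 2 lower (MFGE8, and ITGB3 on 20 and 8 counts), against 4.35% and 4.78% of all genes. There 2 intervals lay above and 8 below 0, against 19.6% and 24.4%, with a median of -0.15. Against Ctrl 0 of 18 were called in either direction, against 4.91% and 10.5%, with a median of -0.26. MFGE8, a bridging protein to integrins that parallels GAS6, had 2167, 2556 and 1258 counts, with ratios of 0.67 (0.59 to 0.76) and -1.08 (-1.18 to -0.99). SCARB1, a scavenger receptor, had ratios of 1.30 (1.26 to 1.35) and -0.60 (-0.64 to -0.56). MFGE8 was thus further below RT than GAS6 or PROS1.

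Among 14 transcription factors linked to AXL, 1 was at least 2-fold higher and 1 lower in RT against Ctrl, against 4.81% and 9.17% of all genes. There 5 intervals lay above and 9 below 0, against 29.7% and 28.2%, and the median was -0.35. FOSL1, an AP-1 subunit, had 4843, 10288 and 13416 counts, with ratios of 1.52 (1.47 to 1.57) for RT to Ctrl, 0.32 (0.28 to 0.36) for RT + shHDAC6 to RT and 1.84 (1.80 to 1.89) for RT + shHDAC6 to Ctrl. It was therefore highest in the shRNA library, where AXL was below RT. SP1, whose motif was marked above, was at -0.38 (-0.43 to -0.33) in RT against Ctrl, and TEAD3 at -1.13 (-1.45 to -0.81). In RT + shHDAC6 against RT 0 of the 14 were 2-fold different, against 4.35% of all genes higher and 4.78% lower. The median of 0.01 was -0.01 by TMM with Ctrl as reference. Against Ctrl 1 was higher and 3 lower (WWTR1 at -1.09, TEAD2 at -1.13 and SNAI2 at -1.65), against 4.91% and 10.5%, with a median of -0.12. The 12 proliferation genes had 0 at least 2-fold different in any comparison. Of all genes, 4.81% were higher and 9.17% lower in RT against Ctrl. These shares were 4.35% and 4.78% in RT + shHDAC6 against RT, and 4.91% and 10.5% against Ctrl. In RT against Ctrl 9 intervals of the list lay above and 3 below 0, against 29.7% and 28.2% of all genes. In RT + shHDAC6 against RT 3 lay above and 4 below, against 19.6% and 24.4%. Against Ctrl 8 lay above and 3 below, against 29.7% and 28.7%. Medians were 0.19 in RT against Ctrl, which was -0.03 with library totals, and 0.23 in RT + shHDAC6 against Ctrl. The median of -0.02 in RT + shHDAC6 against RT was 0.06 with library totals. MKI67, a marker of cycling cells, had 54205, 49860 and 51622 counts before scaling. The libraries held 41811165, 35959265 and 35424086 counts, so the unscaled counts of MKI67 give no direction.

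**Figure D5:**
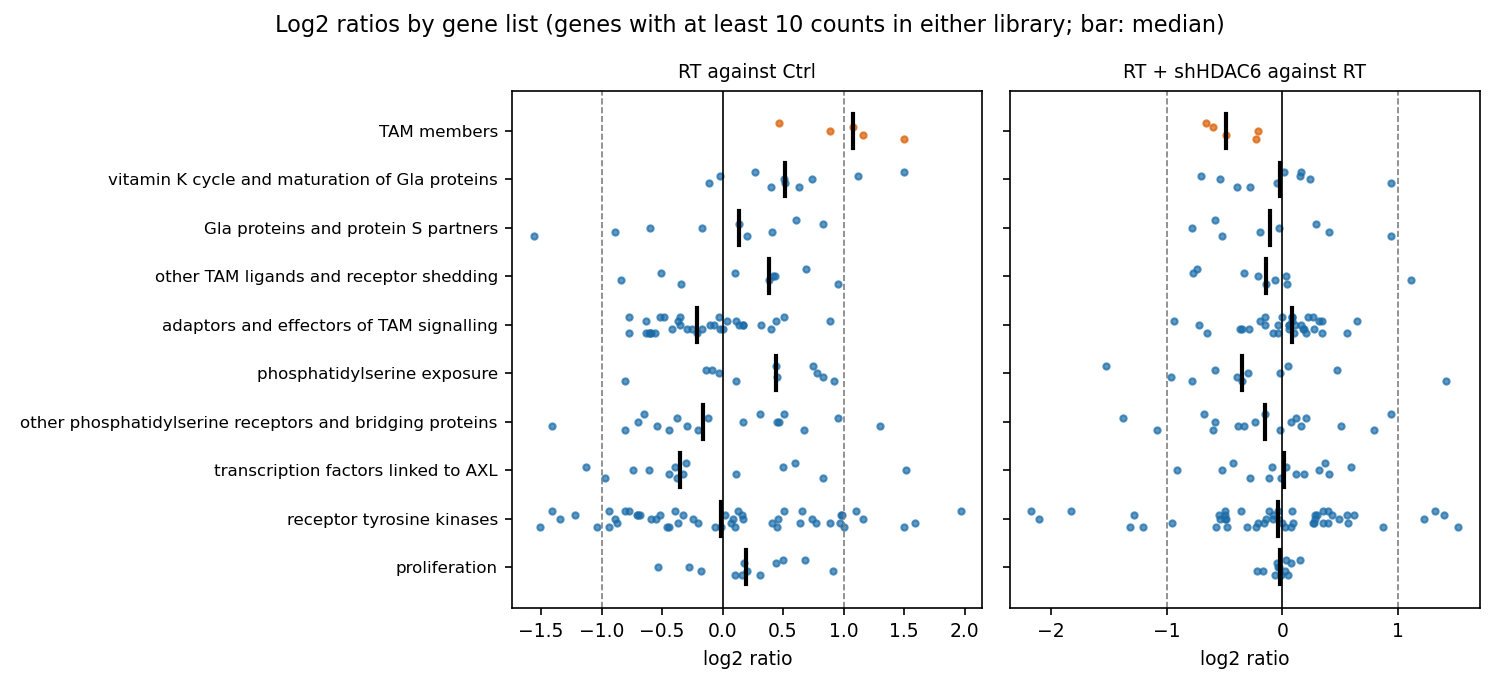
Log2 ratios (x axis) of each tested gene (points) by gene list, with the list's median as a black bar, for RT against Ctrl and RT + shHDAC6 against RT. The TAM genes (orange) have medians of 1.08 and -0.49, and adaptors and effectors of TAM signalling have -0.21 and 0.08.

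The genes next to the members on the chromosome differed in their ratios. HNRNPUL1, beside AXL, had 21412, 15068 and 16292 counts and log2 ratios of -0.07 (-0.10 to -0.04) in RT against Ctrl and 0.05 (0.02 to 0.08) in RT + shHDAC6 against RT. TMEM87B, near MERTK, had ratios of 0.01 and 0.00, and MGA, beside TYRO3, of 0.15 and -0.02. RPAP1, on the other side of TYRO3 and picked out after its values were seen, had ratios of 0.63 (0.54 to 0.72) and -0.19 (-0.27 to -0.10). Over all 12 copies and neighbours found, 10 were tested in RT against Ctrl with 0 higher, 2 lower and a median of -0.12. Of all genes tested, 4.81% were higher and 9.17% lower. In RT + shHDAC6 against RT 9 were tested, with 1 higher and 0 lower, against 4.35% and 4.78%, and a median of 0.00. Against Ctrl 11 were tested, with 1 higher and 3 lower, against 4.91% and 10.5%. The higher one was PROS2P and the lower ones were CYP2S1, TMEM255B and, against Ctrl in RT + shHDAC6, TYRO3P. All of these had at most 39 counts in any library.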

How the data were processed

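RNA of T24 cells was sequenced in 3 libraries, 1 each for Ctrl, RT and RT + shHDAC6, grouped by GEO's labels. The authors used cutadapt for trimming and STAR for alignment to GRCh38 (2.6.1a in the submitters' processing notes, another version in the study's methods), and they deposited whole-number read counts per GENCODE release 28 gene from featureCounts, without normalisation. The strand and multi-mapping settings are not given in the sources used here, and the library kit differs between labels and methods, both kits being stranded. Without molecular identifiers, reads cannot be taken as independent molecules, so intervals and limits cover counting error only.

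Symbols, positions and lengths came from GENCODE release 44, in which 57754 identifiers matched. Counts were scaled with TMM (edgeR 4.0.16, R 4.3.3), a count of 0 was set to 0.5, and each log2 ratio carries a 95% Clopper-Pearson interval (scipy 1.17.1, Python 3.11.15). Intervals of ratios between genes used the normal approximation for log counts. A gene was called at least 2-fold different with at least 10 counts in either library. No test was run, since edgeR and DESeq2 need replicates, and the study's NOISeq, which rests on simulated noise, was not used. A library's 3 counts, the limit that a count of 0 allows, came to 0.0662 (Ctrl), 0.0894 (RT) and 0.0857 (RT + shHDAC6) CPM. The computation was tested on simulated data. Promoter sequences were those of RefSeq (GRCh38.p14), which held all 5 genes.

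Members and gene lists were chosen with earlier results of these data known. Named genes were the 5 members, HDAC6, genes of the lists with at least 100 counts in a library and at least 2-fold difference (at most 4 per list and comparison), up to 3 nearest each list's median, the kinases within the 10 highest per length, and the 3 genes nearest each member's pair of log2 ratios among those with at least 100 counts in every library. Pseudogene copies, antisense genes and cell type markers were named besides. Some genes covered by the rule are left out of the text. Alternatives were library totals, median-of-ratios (DESeq2 1.42.0) and upper quartile scaling, the count minimum, the fold, the replacement of zeros and canonical transcript length. TMM with Ctrl as the reference library was added after seeing the data.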

Additional observations from a re-analysis of the deposited data

How the results depend on the processing

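No log2 ratio of the 5 TAM genes changed sign under any alternative run. With library totals, RT against Ctrl gave 1.28 for AXL, 0.94 for TYRO3, 0.67 for MERTK, 0.86 for GAS6 and 0.26 for PROS1, RT + shHDAC6 against RT gave -0.15 for AXL, -0.41 for TYRO3, -0.13 for MERTK and -0.51 for GAS6, and RT + shHDAC6 against Ctrl gave 1.14, 0.53, 0.55, 0.35 and -0.32 in the order AXL, TYRO3, MERTK, GAS6 and PROS1. For AXL, median-of-ratios scaling gave 1.56 in RT against Ctrl and 1.32 in RT + shHDAC6 against Ctrl, upper quartile scaling gave 1.44, -0.20 and 1.24 in RT against Ctrl, RT + shHDAC6 against RT and RT + shHDAC6 against Ctrl, and TMM with Ctrl as reference, added after seeing the data, gave 1.53 and -0.25 in the first and second of these. For RT against Ctrl, the genes at least 2-fold higher and lower numbered 523 and 2845 with library totals, 4036 and 5149 with no count minimum, and 537 and 278 with a minimum of 100 counts, and those at least 1.5-fold different 2938 and 4156. For RT + shHDAC6 against RT they numbered 3032 and 5179 with no minimum, 120 and 259 with 100 counts, and 1917 and 1888 at 1.5-fold. For RT + shHDAC6 against Ctrl they numbered 4157 and 5309, 452 and 562, and 2830 and 4182. Apart from those with library totals, where the scaling alone differs, these counts differ by construction, with more or fewer genes tested or another fold. With canonical lengths GAS6 stood above MERTK in every library, while AXL kept its rank among the kinases. No paired analysis was possible because each condition had 1 library, and no replicate could be left out for the same reason. Depth limits the scarce genes most, and the variation between cultures is not known.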

Other observations

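Among 11460 genes with at least 100 counts in every library, those nearest to each TAM gene in the pair of log2 ratios (RT to Ctrl, RT + shHDAC6 to RT) were sought over the 3 libraries, as a description of likeness. Nearest to AXL was DOLK, a kinase of dolichol (1.47 and -0.23, distance 0.033), followed by QSOX2 (0.034) and CNNM3 (0.044). Nearest to TYRO3 were TOR2A (1.15 and -0.49, distance 0.015), GPAA1, a subunit of the GPI transamidase (0.023), and the pseudogene DDX12P (0.037). Nearest to MERTK was RPN1, a subunit of the oligosaccharyltransferase of the endoplasmic reticulum (0.89 and -0.21, distance 0.0023, with 17109, 23481 and 21207 counts), then TNPO2 (0.022) and ABCC1 (0.023). Nearest to GAS6 were MOGS, the first glucosidase of N-glycan trimming (1.09 and -0.60, distance 0.013), TMEM62 (0.036) and P3H1, a collagen prolyl hydroxylase (0.039). Nearest to PROS1 were NDUFV2 (0.46 and -0.67, distance 0.019, on 144 to 220 counts), BTN3A3 (0.031) and ZNF337-AS1 (0.032).

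The pseudogene PROS2P, singled out after its values were seen, had 5 (Ctrl), 9 (RT) and 39 (RT + shHDAC6) counts, with log2 ratios of 2.05 for RT + shHDAC6 to RT (0.98 to 3.28) and 3.34 for RT + shHDAC6 to Ctrl (1.99 to 5.04). PROS1 itself went the other way, with 1719 counts in RT and 1136 in RT + shHDAC6. How reads that fit both genes were counted is not given in the sources used here.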
